A study of Mus musculus with 8 samples.

Results

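The genes of DNA replication and of the G1/S transition were compared between regulatory T cells with and without Raptor; these cells are a CD4 lineage that holds immune responses in check. The set held 41 genes given by name, from origin licensing factors to the cyclins and kinases that open S phase. A probe set was found for 40 of them, among 17097 genes on the array, and none that lists Chaf1a alone. Each gene was read from its probe set with the highest mean over 8 arrays. Of the 40, 37 exceeded the 40th percentile of the array on at least 4 arrays and were tested, against 11413 genes in all. The filter left out Cdc45, Pola1 and Fen1, so counts below cover 37 genes and not the whole set.

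The cells were CD4+CD25+ cells sorted from spleen and peripheral lymph nodes of C57Bl/6J mice and used fresh and untreated for RNA. Of the 8 arrays, 4 came from WT mice and 4 from CD4(cre)Raptor(fl/fl) mice, called RaptorKO here. In the latter a Cre recombinase driven by Cd4 deletes the floxed Rptor gene, which encodes the scaffold of the kinase complex mTORC1. Cd4-driven Cre acts in all T cells that pass through the CD4-expressing stage of the thymus, so other T cells of these mice also lack the gene. The labels give no age and do not say whether each array came from a separate mouse. P-values therefore measure spread among these 8 samples alone, and that spread may be technical. Values are log2 intensities, a change is RaptorKO minus WT on that scale, and a gene was called at a limma adjusted p under 0.05 over all 11413 genes. The number of arrays limits the precision.

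Replication begins in G1, when the origin recognition complex, Cdc6 and Cdt1 load the MCM helicase onto DNA. Cyclin D with Cdk4, and then cyclin E with Cdk2, release the E2F factors from the retinoblastoma proteins. E2F then drives transcription of most of the genes described here, which is why their transcripts serve as a readout of cells that enter S phase. mTORC1 is known to couple growth signals to this entry, and regulatory T cells in lymphoid organs include a cycling fraction. In sorted populations, fewer cycling cells and less RNA per cycling cell cannot be told apart.

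As a check of the samples, Rptor itself read 6.75 to 7.03 on WT arrays and 6.47 to 6.95 on RaptorKO arrays, a change of -0.23 (SE 0.12) that was not called (limma adjusted p = 0.491). Its probe set may lie outside the deleted exons, and then checks nothing. Foxp3, the defining factor of these cells, which the sort did not use, read 10.79 to 10.96 in WT and 10.96 to 11.04 in RaptorKO. Il2ra, which encodes CD25, differed by 0.030 (limma adjusted p = 0.949). Of the 7 tested regulatory T cell markers, 4 were positive and 3 negative. Ikzf2 differed by 0.21 and Ctla4 by -0.32, each without overlap between the groups, and Capg by -0.19 and Ikzf4 by -0.12. Groups without overlap made up 28.6% of the 7, beside 8.82% of all tested genes. Replicates 1 and 2 of both genotypes had Xist values of 10.88 to 11.18 and replicates 3 and 4 values of 5.04 to 5.62, with Kdm5d at 3.74 to 4.39 and 8.22 to 8.51, so the sets differ in sex-linked transcripts. They also differed in macrophage transcripts: replicates 3 and 4 were higher than replicates 1 and 2 by 1.27 for C1qa, 1.34 for C1qc and 0.78 for Vcam1 (limma adjusted p = 0.00169, 0.00468 and 0.0294). Macrophage and monocyte markers had a positive change in 8 of 8 tested genes (median 0.36), and their mean level over 11 genes ran from 4.86 to 5.74 in WT and from 5.31 to 6.05 in RaptorKO. Adgre1, Cd14 and Fcgr1 lay below the filter. CD8 and natural killer markers went both ways, with 3 of 5 tested genes negative (Cd8a -1.03, Cd8b1 -0.77, Klrd1 -0.69) and 2 positive (Nkg7 0.87, without overlap, and Gzma 0.28), and with levels of 5.35 to 6.95 in WT and 5.75 to 6.31 in RaptorKO; Ncr1 lay below the filter. B cell markers were positive in 4 of 5 genes (median 0.14; levels 5.07 to 6.11 and 5.52 to 5.95), with Ms4a1 and Ebf1 below the filter. Conventional CD4 markers were negative in 4 of 4 (median -0.23, levels 8.70 to 8.89 and 8.53 to 8.69), with Cd40lg at -0.32 without overlap. General T cell markers were negative in 4 of 4 (median -0.18, with Cd4 at -0.22 without overlap). Follicular T cell markers were also negative in 4 of 4 (median -0.33, with Sh2d1a at -0.46 without overlap). The erythroid Hba-a1 differed 2.15-fold, with the RaptorKO mean above that of WT (limma adjusted p = 0.159). The 3 tested erythroid markers had a median of 0.065, with 2 positive and 1 negative. The plasma cell gene Jchain differed by 0.79, with 1.68 in replicates 1 and 2 and -0.11 in replicates 3 and 4. Of the 4 tested plasma cell markers it was the 1 positive, and 3 were negative (median -0.080). No gene of these lists was called between genotypes, and their part in the results below was not tested.

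Most replication and G1/S transcripts showed no difference between the genotypes that passed the test. Of the 37 tested genes, 2 rose in RaptorKO, Ung and Chaf1b, and 0 fell (limma, Benjamini-Hochberg over all genes). That is 5.41% of the tested members, where 1.96% of all tested genes were called, 0.824% higher and 1.14% lower. At an unadjusted p under 0.05 there were 4 members, all of them higher, or 10.8% against 13.0% of all genes. The changes ran from -0.14 (Mcm4) to 0.55 (Ung), with 24 positive (64.9%, beside 47.6% of all genes tested) and 13 negative. Their median was 0.054, beside -0.0092 over all genes tested.

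The arrays of the 2 groups did not overlap for 3 members, Ung, Chaf1b and Cdk4, all of them higher, which is 8.11% beside 8.82% of all genes (3.73% higher, 5.09% lower), a total near the background. The limma 95% interval of the change lay inside 1.5-fold in both directions for 28 of 37 members, or 75.7%, beside 85.2% of all genes. It lay inside 2-fold for all 37 tested members. Replicates of the members spread more widely than those of other genes, with a median within-group SD of 0.21 in WT and 0.21 in RaptorKO, beside 0.14 and 0.18 over all genes.

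**Figure D1:**
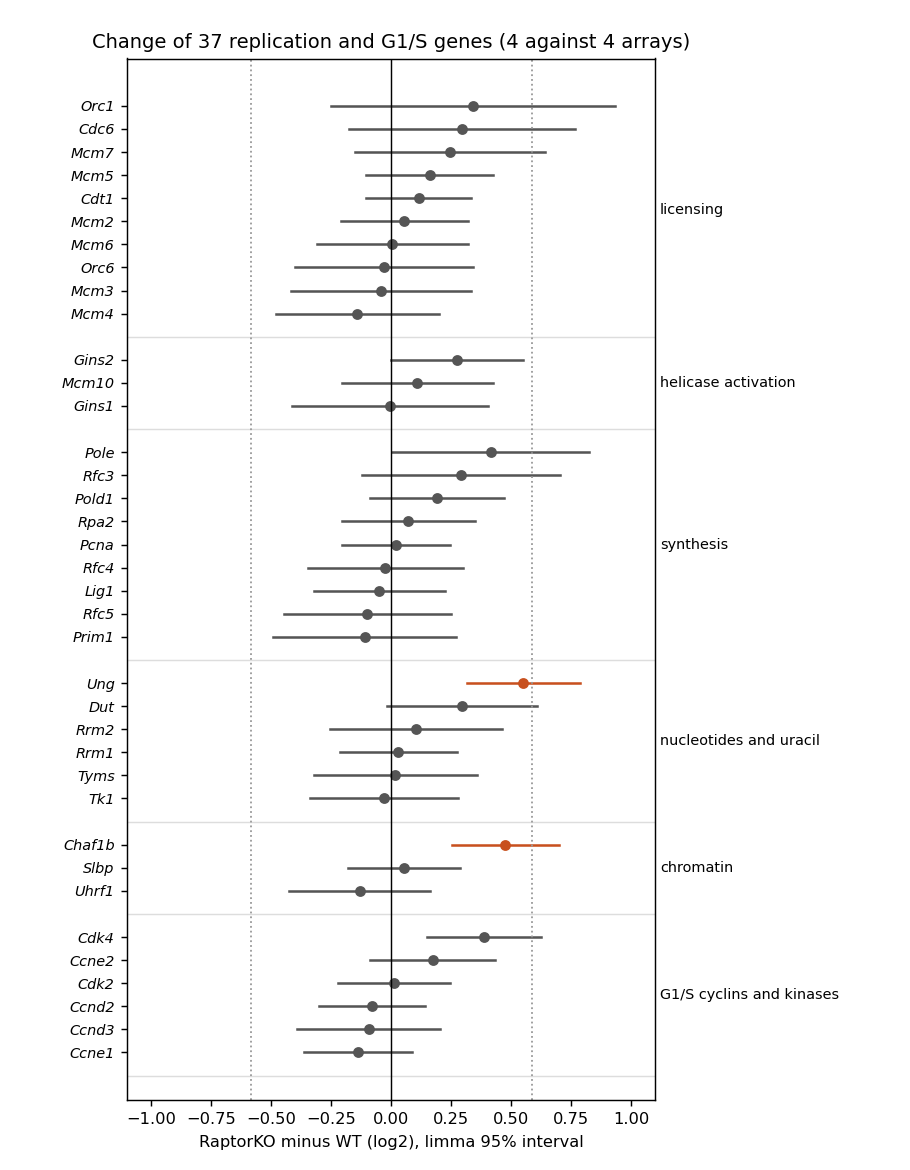
Change of each of the 37 tested genes (RaptorKO minus WT, log2) with the limma 95% interval, grouped by role; dotted lines mark 1.5-fold and orange marks the called genes. Ung (0.55) and Chaf1b (0.47) are the called genes, and most intervals cross 0.

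E2F acts through a short motif near the start of its target genes, and promoters of the set were searched for it. RefSeq promoter windows (GRCm38.p6, 250 bases before to 50 after a gene's start) were at hand for 35 of the 41 genes, with 41 windows; Mcm4, Gins1, Gins2, Pole, Ccne2 and Ccnd2 had none. An E2F motif, searched as TTTCCCGC, TTTCGCGC, TTTGCCGC or TTTGGCGC on both strands, was present in 13 of the 41 windows, or 31.7%, and in 2.26% of all 32851 windows. The genes were Cdc6, Cdk2, Cdt1, Lig1, Mcm3, Mcm5, Mcm6, Mcm7, Orc1, Pola1, Pold1, Rfc3 and Uhrf1. CCAAT, a box common in cell cycle promoters, was in 56.1% of the members' windows and 37.4% of all, and TTTGAA, the core of the element of late cell cycle genes, in 7.32% and 17.9%. The E-box CACGTG, which Myc binds and which is its own reverse complement, was in 12.2% and 7.15%.

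The 250 bases upstream of 5 genes are shown, 5′ to 3′ on the gene's strand, because they set the genes whose groups did not overlap (Cdk4, Ung, Chaf1b) beside licensing genes with the E2F motif (Mcm6, Cdc6). Capitals mark E2F motifs, or E-boxes in Cdk4; in Mcm6 a pair of overlapping motifs forms 1 run.
Mcm6 at chr1:128359706-128359955, minus strand: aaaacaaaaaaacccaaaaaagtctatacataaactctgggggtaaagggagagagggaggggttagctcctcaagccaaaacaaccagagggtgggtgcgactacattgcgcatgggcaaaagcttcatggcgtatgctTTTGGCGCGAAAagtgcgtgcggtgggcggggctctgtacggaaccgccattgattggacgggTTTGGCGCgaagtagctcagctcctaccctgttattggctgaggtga
Cdc6 at chr11:98907901-98908150, plus strand: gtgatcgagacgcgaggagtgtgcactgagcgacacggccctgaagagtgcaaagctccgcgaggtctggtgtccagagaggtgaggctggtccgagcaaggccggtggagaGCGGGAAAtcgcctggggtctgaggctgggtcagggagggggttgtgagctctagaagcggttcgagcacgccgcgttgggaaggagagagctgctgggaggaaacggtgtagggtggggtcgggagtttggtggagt
Cdk4 at chr10:127063285-127063534, plus strand: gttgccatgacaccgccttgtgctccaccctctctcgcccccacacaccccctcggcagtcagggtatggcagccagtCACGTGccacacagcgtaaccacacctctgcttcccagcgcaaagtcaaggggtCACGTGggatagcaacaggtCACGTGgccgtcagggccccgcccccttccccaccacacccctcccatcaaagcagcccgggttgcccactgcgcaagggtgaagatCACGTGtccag
Ung at chr5:114130185-114130434, plus strand: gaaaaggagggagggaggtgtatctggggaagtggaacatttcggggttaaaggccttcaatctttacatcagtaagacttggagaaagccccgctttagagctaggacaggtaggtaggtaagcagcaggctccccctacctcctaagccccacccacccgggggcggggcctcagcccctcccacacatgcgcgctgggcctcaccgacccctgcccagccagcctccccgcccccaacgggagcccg
Chaf1b at chr16:93883651-93883900, plus strand: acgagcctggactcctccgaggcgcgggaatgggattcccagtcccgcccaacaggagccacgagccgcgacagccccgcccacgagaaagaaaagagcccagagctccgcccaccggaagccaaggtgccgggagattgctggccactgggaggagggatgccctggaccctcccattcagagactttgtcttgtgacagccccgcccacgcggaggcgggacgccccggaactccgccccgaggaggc
Mcm6 holds 3 E2F motifs and Cdc6 holds 1, while Cdk4 holds 4 E-boxes. In the windows of Ung and Chaf1b these letters were not found. The 12 tested members with the E2F motif had a median change of 0.14 and the 19 tested members with a window but no motif 0.029, values given as a description without a test.

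Licensing factors, which load the helicase in G1, had 0 called genes of 10 and a median change of 0.084. At an unadjusted p under 0.05 there were also 0. Cdc6, the loader of the MCM ring, read 4.64, 5.03, 4.81 and 5.17 in WT 1 to 4 and 5.13, 5.75, 4.56 and 5.39 in RaptorKO 1 to 4. RaptorKO 3 was the lowest of the 8 arrays and RaptorKO 2 the highest, and 1 array of each genotype lay under the filter's percentile (change 0.29, SE 0.22, limma adjusted p = 0.654).

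Mcm7, a subunit of the helicase, read 7.61, 8.20, 7.50 and 7.53 in WT and 7.82, 8.26, 8.15 and 7.60 in RaptorKO, a change of 0.24 (SE 0.18, adjusted p = 0.657). WT 2 stood with the higher RaptorKO arrays and RaptorKO 4 with the lower WT arrays. Mcm5, another subunit, read 6.85, 6.53, 6.81 and 7.07 in WT and 6.88, 7.06, 6.91 and 7.05 in RaptorKO (change 0.16, adjusted p = 0.669), so its RaptorKO arrays lay inside the WT range. The remaining subunits differed by -0.14 (Mcm4), -0.043 (Mcm3), 0.0046 (Mcm6) and 0.055 (Mcm2). The MCM genes thus lay on both sides of 0, with no call and adjusted p of 0.657 or more. Cdt1, the partner of Cdc6 in loading, differed by 0.11 with an interval of -0.10 to 0.33. Among the subunits of the origin recognition complex, Orc6 differed by -0.031 and Orc1 by 0.34 (SE 0.27). Orc1 spread from 5.35 to 6.54 within WT alone, and its dimmer probe set, below the filter, differed by -0.036.

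Genes that turn the loaded ring into an active helicase had 0 called of 3 tested. Gins2, a subunit of the GINS complex, read 6.91, 7.10, 6.94 and 6.68 in WT and 7.09, 7.37, 6.95 and 7.30 in RaptorKO. RaptorKO 1 and 3 lay inside the WT range, and the change of 0.27 (SE 0.13, limma adjusted p = 0.388) did not pass. Its unadjusted p was 0.0522. Mcm10, which helps to fire origins, read 5.16, 5.27, 5.21 and 4.80 in WT and 4.92, 5.38, 5.13 and 5.46 in RaptorKO (change 0.11). Gins1, another GINS subunit, read 5.34, 4.70, 5.56 and 5.69 in WT and 5.10, 5.44, 5.39 and 5.33 in RaptorKO (change -0.0061). For both genes the groups overlapped. Cdc45, the helicase cofactor, exceeded the filter's percentile on 1 WT array and 0 RaptorKO arrays and was not tested.

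Among polymerases, clamp and ligase, 0 of 9 tested genes were called, with a median change of 0.022. Pole, the catalytic subunit of the leading strand polymerase, read 4.76, 4.49, 4.69 and 5.06 in WT and 4.92, 5.57, 4.72 and 5.45 in RaptorKO (change 0.41, SE 0.19, limma adjusted p = 0.38). RaptorKO 2 and 4 lay above every WT array, RaptorKO 1 and 3 did not, and 2 WT arrays and 1 RaptorKO array were under the filter's percentile. Rfc3, a subunit of the clamp loader, read 5.94, 5.33, 5.50 and 5.24 in WT and 6.09, 6.11, 5.46 and 5.51 in RaptorKO (change 0.29, adjusted p = 0.589), while the other clamp loader subunits differed by -0.024 (Rfc4) and -0.10 (Rfc5). Pold1, the catalytic subunit of the lagging strand polymerase, read 5.80, 5.74, 6.04 and 5.66 in WT and 5.99, 6.30, 5.83 and 5.89 in RaptorKO (change 0.19, adjusted p = 0.617). For all of these the groups overlapped.

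Pcna, the sliding clamp and a classic S phase transcript, was nearly level: 10.24, 10.01, 10.33 and 10.23 in WT and 10.16, 10.26, 10.33 and 10.15 in RaptorKO. The change was 0.022 with a limma 95% interval of -0.20 to 0.25. RaptorKO 3 and WT 3 shared the top, WT 2 was the lowest and the groups overlapped. The single-strand binding subunit Rpa2 (0.070), the ligase Lig1 (-0.051) and the primase subunit Prim1 (-0.11) also had intervals on both sides of 0. The dimmer probe set of Prim1 differed by 0.12. Pola1, the polymerase that extends the primer, passed the filter's percentile on 2 RaptorKO arrays and 0 WT arrays and the flap nuclease Fen1 on 0 arrays, so neither was tested.

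Enzymes of nucleotide supply and uracil removal included the member with the greatest change. Ung, the uracil DNA glycosylase that excises uracil from DNA, rose by 0.55 (SE 0.11, limma adjusted p = 0.0242), or 1.46-fold. It read 8.03, 7.67, 7.82 and 7.76 in WT and 8.49, 8.26, 8.30 and 8.43 in RaptorKO (means 7.82 ± 0.15 and 8.37 ± 0.11, SD, n = 4 each). All 4 RaptorKO arrays lay above all 4 WT arrays. Replicates 1 and 2 gave a change of 0.52, and replicates 3 and 4 one of 0.58. The call was lost without WT 2 (0.50, adjusted p = 0.0666), WT 3 (0.55, adjusted p = 0.0759), WT 4 (0.53, adjusted p = 0.0852), RaptorKO 1 (0.51, adjusted p = 0.0723) or RaptorKO 4 (0.53, adjusted p = 0.0646), while the change stayed between 0.50 and 0.62 over the 8 fits that left out 1 array.

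Dut, the dUTPase that keeps uracil out of the nucleotide pool, read 8.19, 8.23, 8.45 and 8.58 in WT and 8.70, 8.99, 8.56 and 8.37 in RaptorKO (change 0.29, SE 0.14, limma adjusted p = 0.419). RaptorKO 1 and 2 lay above every WT array and RaptorKO 3 and 4 did not: replicates 1 and 2 gave 0.64, and replicates 3 and 4 gave -0.050. No call was made for that contrast between sets (adjusted p = 0.334, limma interaction), and the dimmer Dut probe set differed by -0.14. Ribonucleotide reductase, which makes deoxynucleotides, differed by 0.029 in its large subunit Rrm1. Its small subunit Rrm2 read 5.69, 5.77, 5.77 and 6.43 in WT and 5.91, 6.04, 5.86 and 6.26 in RaptorKO (change 0.10), and WT 4 was the highest array. The thymidylate synthase Tyms (0.016) and the thymidine kinase Tk1 (-0.032) had intervals of -0.32 to 0.36 and -0.34 to 0.28.

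Among chromatin assembly genes, Chaf1b, a subunit of the histone chaperone that loads nucleosomes on new DNA, rose by 0.47 (SE 0.10, limma adjusted p = 0.0364), or 1.39-fold. It read 6.45, 6.44, 6.52 and 6.53 in WT and 6.84, 6.97, 6.86 and 7.17 in RaptorKO (means 6.49 ± 0.05 and 6.96 ± 0.15, SD, n = 4 each). The groups lay apart, and the change was 0.46 in replicates 1 and 2 and 0.49 in replicates 3 and 4. This call was less firm than that of Ung, since it ended without any single one of the 8 arrays, WT 1 to 4 and RaptorKO 1 to 4 alike (0.41 to 0.51, adjusted p = 0.0534 to 0.117). With the mean of the gene's probe sets the change was 0.18 (adjusted p = 0.375); the other probe set lay below the filter and differed by -0.12.

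The other genes that act on new chromatin were not called. Uhrf1, which carries DNA methylation across the fork, read 6.71, 6.89, 6.53 and 6.76 in WT and 6.42, 6.67, 6.36 and 6.91 in RaptorKO (change -0.13, limma adjusted p = 0.784). Slbp, which binds histone transcripts, read 8.04, 7.77, 7.76 and 7.97 in WT and 7.89, 8.09, 7.83 and 7.95 in RaptorKO (change 0.054, adjusted p = 0.905). In both the groups overlapped.

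**Figure D2:**
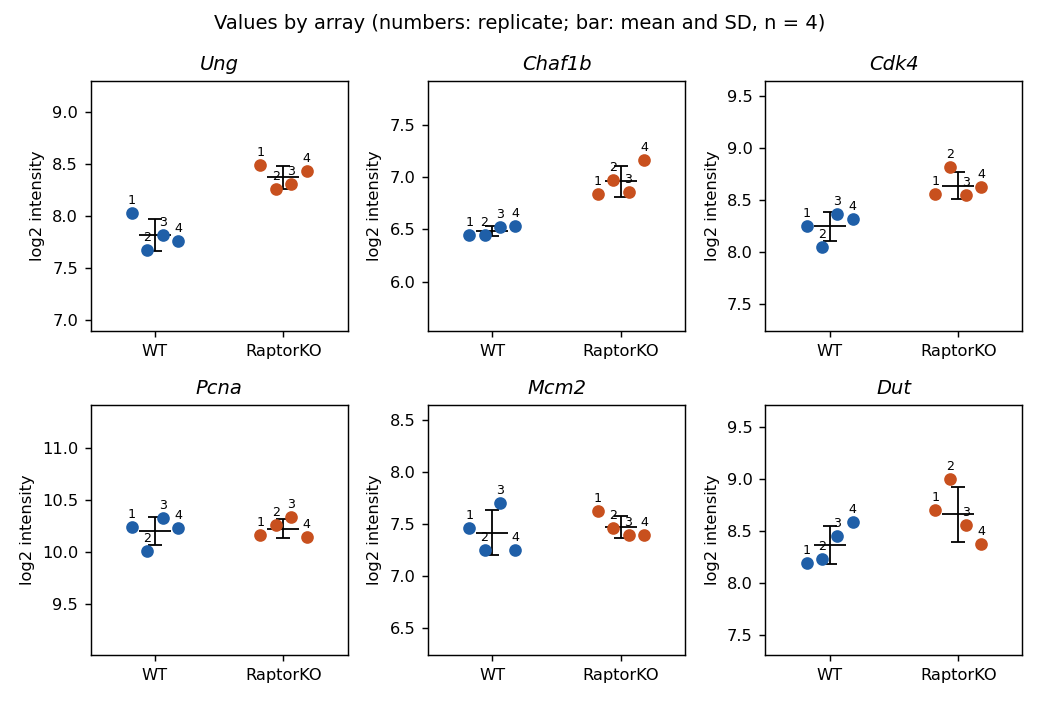
Log2 intensity of 6 genes on each array, with the mean and SD (n = 4) of each group; numbers name the replicate and every panel spans the same range. For Ung, Chaf1b and Cdk4 all RaptorKO arrays lie above all WT arrays, while for Pcna, Mcm2 and Dut the groups overlap.

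Among G1/S cyclins and kinases, 0 of 6 genes were called by limma and 1, Cdk4, had an unadjusted p under 0.05. Cdk4, the kinase that partners D-type cyclins, read 8.25, 8.05, 8.37 and 8.31 in WT and 8.55, 8.82, 8.54 and 8.62 in RaptorKO. All RaptorKO arrays lay above all WT arrays, with a change of 0.39 (SE 0.11, unadjusted p = 0.0040, adjusted p = 0.112). It passed with quantile normalization (0.43, adjusted p = 0.0334) and in no other fit run, with adjusted p of 0.061 to 0.357 elsewhere. Its 3 probe sets gave changes of 0.39, 0.37 and 0.45, and in each of them the groups did not overlap; the brightest is of a design whose probes may match other sequences too.

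The cyclins lay on both sides of 0. Ccne2 read 5.58, 6.02, 5.69 and 5.85 in WT and 6.09, 6.04, 5.92 and 5.79 in RaptorKO (change 0.17, limma adjusted p = 0.626). Ccne1 read 6.43, 6.29, 6.49 and 6.52 in WT and 6.18, 6.35, 6.43 and 6.21 in RaptorKO (change -0.14, adjusted p = 0.661). These cyclin E genes differed in opposite directions, with overlapping groups, and Cdk2, their kinase, differed by 0.012 (interval -0.22 to 0.25).

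The D-type cyclins, which partner Cdk4, depended on the probe set. Ccnd2 differed by -0.080 (limma adjusted p = 0.837) by its brightest probe set, which reads 10.53 to 10.81 over the 8 arrays. Its 6 probe sets all had a negative change, from -0.080 to -0.45, and in the dimmest (9.45 to 9.78 in WT, 8.83 to 9.36 in RaptorKO) the groups did not overlap. Ccnd3 differed by -0.095 by its brighter probe set, where WT 2 stood above all others. By the dimmer one it read 7.96, 7.78, 7.91 and 7.74 in WT and 7.63, 7.51, 7.32 and 7.26 in RaptorKO, a change of -0.42 (unadjusted p = 0.00357) with no overlap. With all 27343 probe sets tested singly, neither gene was called (limma adjusted p = 0.131 for this Ccnd3 set and 0.186 for the dimmest Ccnd2 set).

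**Figure D3:**
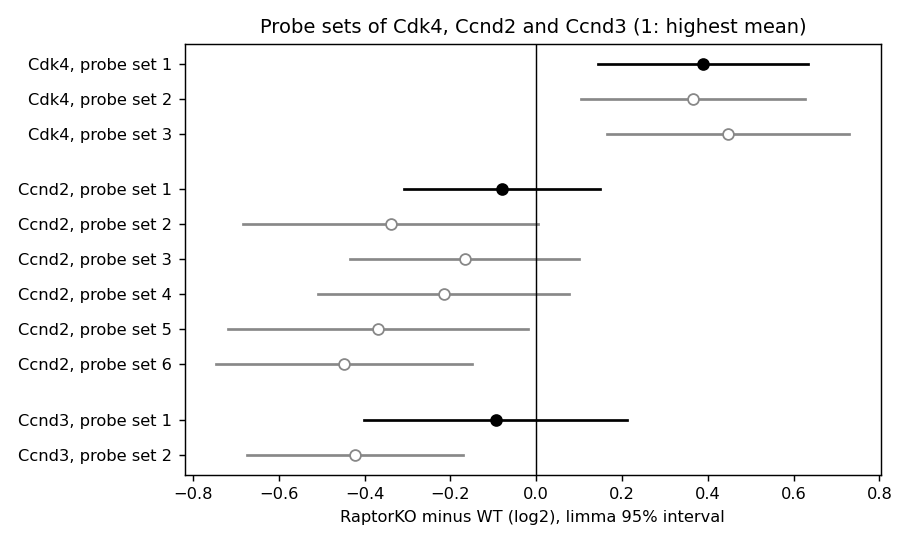
Change of every probe set of Cdk4, Ccnd2 and Ccnd3 (RaptorKO minus WT, log2, limma 95% interval with all probe sets tested singly); filled points mark the probe set used for the gene, and numbers rank the sets by mean intensity. The 3 Cdk4 sets lie between 0.37 and 0.45, and the Ccnd2 and Ccnd3 sets all lie below 0.

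Across the set, 73 probe sets listed a member, 63 of them passed the filter and 1 was called when all were tested singly (Ung, limma adjusted p = 0.0432). Chaf1b then had an adjusted p = 0.0609. Of 19 members with at least 2 tested probe sets, 4 had sets of opposite sign.

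The level of the whole set was highest on 1 RaptorKO array. As a mean deviation of the 37 genes from their own 8-array means, WT 1 to 4 lay at -0.075, -0.11, -0.021 and 0.0032 and RaptorKO 1 to 4 at -0.023, 0.19, -0.029 and 0.062. RaptorKO 2 was that array, and RaptorKO 1 and 3 lay inside the WT range. RaptorKO 2 held the highest value of the 8 for 16 of the 37 genes, or 43.2%, and for 24.7% of all genes tested. WT 2 held the lowest for 11, or 29.7%, and for 16.5% of all genes. Without RaptorKO 2 the median change of the members was 0.022.

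Between the sets, which differ in sex-linked and in macrophage transcripts, the median change of the members was 0.19 in replicates 1 and 2 but -0.016 in replicates 3 and 4, beside 0.021 and -0.041 over all genes. Of the 37, 29 were positive in the former and 17 in the latter. The difference between the sets passed for 0 of 11413 genes (limma interaction, Benjamini-Hochberg, so percent called is 0). At an unadjusted p under 0.05 it was 3 members (Prim1, Dut and Orc6), or 8.11%, against 11.4% of all genes. Prim1 differed by 0.30 in replicates 1 and 2 but by -0.52 in replicates 3 and 4 (interaction adjusted p = 0.334). Its dimmer probe set showed no such fall in replicates 3 and 4 (WT 6.70 and 6.59, RaptorKO 6.68 and 6.94). The part of the macrophage transcripts in the members' set difference was not tested.

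**Figure D4:**
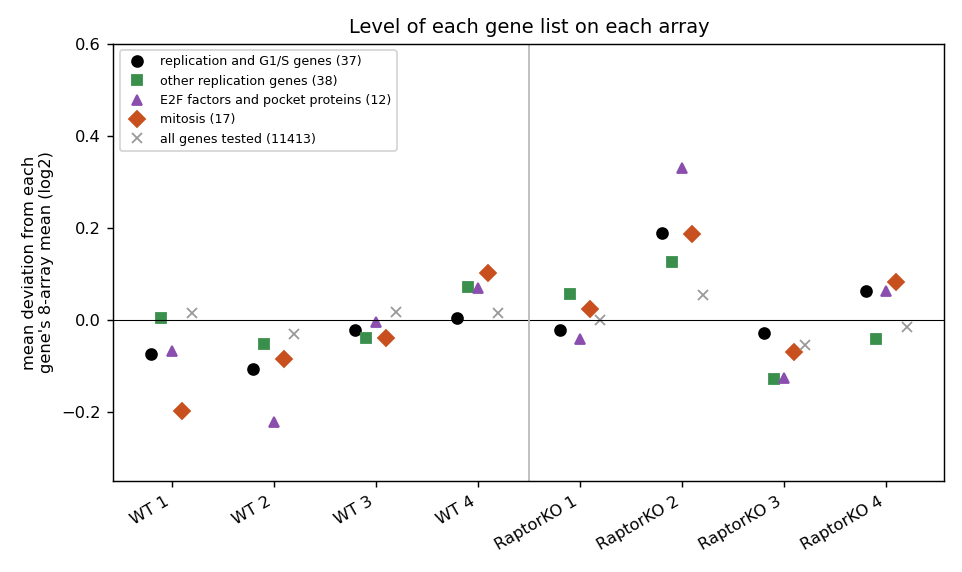
Mean deviation of each gene list from its genes' 8-array means (log2) on each array, with the number of tested genes in brackets. RaptorKO 2 is the highest array for the replication and G1/S genes (0.19), and RaptorKO 1 and 3 lie inside the WT range.

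Other genes of the same machinery were read from lists of the wider pathway. Of 38 tested replication and nucleotide pool genes outside the set, 0 rose and 2 fell, both of them enzymes of the deoxynucleotide pool. That is 5.26% of the list, where 1.96% of all tested genes were called, 1.14% lower. Dtymk and Rrm2b, listed genes that act on the same pool, differed by 0.13 and 0.17 and were not called. Samhd1, the enzyme that breaks deoxynucleotides down, read 11.47, 11.36, 11.43 and 11.55 in WT and 10.89, 10.75, 10.72 and 10.83 in RaptorKO. It fell by 0.65 (SE 0.09, limma adjusted p = 0.00426), or 1.57-fold, and the groups lay far apart. Its second probe set differed by -0.82, and leaving out any single array kept the call (adjusted p = 0.00973 to 0.0233).

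Dck, the deoxycytidine kinase of the salvage pathway, read 6.99, 6.91, 6.69 and 6.89 in WT and 6.39, 6.33, 5.94 and 5.69 in RaptorKO. It fell by 0.78 (SE 0.15, limma adjusted p = 0.0234), or 1.72-fold, with no overlap. The call was lost without WT 1 (-0.74, adjusted p = 0.079), WT 2 (-0.77, adjusted p = 0.0666), WT 4 (-0.78, adjusted p = 0.0761) or RaptorKO 3 (-0.73, adjusted p = 0.0652). The median of the 38 was 0.033, with 21 positive, or 55.3%, beside 47.6% of all genes.

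Among E2F factors and pocket proteins, 0 of 12 rose and 1 fell. That is 8.33% of the list, where 1.96% of all tested genes were called, 1.14% lower. E2f2, an activator E2F, read 7.53, 7.45, 7.73 and 8.02 in WT and 6.30, 7.13, 6.63 and 7.02 in RaptorKO and fell by 0.91 (SE 0.18, limma adjusted p = 0.0277), or 1.88-fold. Every RaptorKO array lay below every WT array, and the second probe set differed by -0.79. The call was lost without WT 1 (-0.97, adjusted p = 0.0556), WT 3 (-0.90, adjusted p = 0.0815), WT 4 (-0.80, adjusted p = 0.0867), RaptorKO 1 (-0.76, adjusted p = 0.0568) or RaptorKO 3 (-0.87, adjusted p = 0.0724). The list as a whole had 9 positive and 3 negative changes, with a median of 0.18. Positive changes were 75% of the list, beside 47.6% of all genes. The median change was 0.37 in replicates 1 and 2 but -0.026 in replicates 3 and 4. For 3 of the 12, or 25%, the limma interaction with set had an unadjusted p under 0.05, beside 11.4% of all genes. No gene passed it after adjustment. Tfdp2 (0.60, limma adjusted p = 0.155) and Rbl2 (0.32, limma adjusted p = 0.264) were higher without overlap and were not called. Groups without overlap made up 25% of the list, beside 8.82% of all genes.

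**Figure D5:**
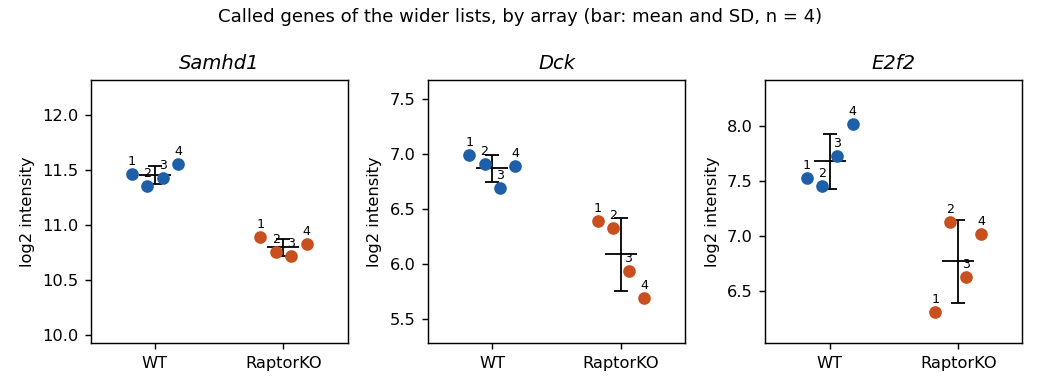
Log2 intensity of Samhd1, Dck and E2f2 on each array, with the mean and SD (n = 4) of each group; numbers name the replicate. In all 3 genes every RaptorKO array lies below every WT array.

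Of the other regulators of the G1/S step, 0 of 11 tested were called (limma), and 9 were positive (median 0.089). Positive changes were 81.8% of the 11, beside 47.6% of all genes. At an unadjusted p under 0.05 there were 4, or 36.4%, beside 13.0% of all genes. The groups did not overlap for 18.2% of the 11, beside 8.82% of all genes. Skp2, the F-box protein that targets the inhibitor p27 for degradation, read 5.61 to 5.81 in WT and 5.89 to 6.83 in RaptorKO, without overlap (change 0.57, adjusted p = 0.161). Cdkn1b, which encodes p27, read 10.38 to 10.51 in WT and 10.07 to 10.35 in RaptorKO, also without overlap (change -0.24, adjusted p = 0.319). It had the largest unadjusted p of the 4 (0.0337, limma) and was the only one of them that was lower. The others were Cks1b (change 0.49, adjusted p = 0.187) and Cdk6 (change 0.33, adjusted p = 0.294), both with overlapping groups. Cdkn1b, Cks1b and Cdk6 were picked out after their values were seen. The inhibitors Cdkn1c, Cdkn2a and Cdkn2b lay below the filter.

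Genes of mitosis, the later stage of the cycle, had 0 called of 17 tested (limma) and 14 positive changes (median 0.11). Positive changes were 82.4% of the 17, beside 47.6% of all genes. At an unadjusted p under 0.05 there were 2, or 11.8%, beside 13.0% of all genes. The median change was 0.24 in replicates 1 and 2 but 0.049 in replicates 3 and 4. For 6 of the 17, or 35.3%, the limma interaction with set had an unadjusted p under 0.05, beside 11.4% of all genes. No gene passed that interaction after adjustment. Aurkb, a kinase of chromosome segregation, differed by 0.26 (adjusted p = 0.362), with groups that overlapped. It exceeded the filter's percentile on 1 WT array and 3 RaptorKO arrays only. Mki67, which encodes the proliferation antigen Ki-67, read 7.95, 8.28, 8.09 and 8.49 in WT and 8.25, 8.74, 7.86 and 8.54 in RaptorKO, a change of 0.14 (SE 0.18, adjusted p = 0.837). RaptorKO 3 was the lowest of the 8 arrays and RaptorKO 2 the highest, as for Cdc6.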

How the data were processed

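The authors deposited log2 values for each probe set; RMA, the robust multi-array average, is the tool the submitters' processing notes name, without a version. Amplified RNA was labelled, per the labels' protocols. Background correction and normalization between arrays were thus done before deposit (array medians 5.21 to 5.29), and no further normalization was applied. Probe sets were named from the platform annotation, updated through Entrez identifiers to RefSeq symbols (28689 of 28898 single-gene sets matched). Groups came from the sample titles.

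RaptorKO was compared with WT in limma 3.58.1 (R 4.3.3; lmFit, eBayes, no covariates, Benjamini-Hochberg adjustment). The members, gene lists and sets of replicates were chosen with earlier results of these data known. The text names the called members and the 3 with the smallest p in each of 6 role groups in full, the others by change, and called genes of each wider list (or the 1 with the smallest p), with Mki67 always given. Pcna and the second Ccnd3 probe set are given in full outside this rule, chosen after their values were seen. Of the wider lists, Cdkn1b, Cks1b, Cdk6, Tfdp2, Rbl2, Dtymk and Rrm2b are also named outside it, after their values were seen. Figures used matplotlib 3.10.9. On simulated data with 11413 genes, 99% of 100 genes changed by 1 and 47% of 100 changed by 0.5 were called. The changed genes were drawn from all tested genes, with noise independent between genes. Each gene's SD was first moved partway to the median SD, so genes of wide spread were simulated with less spread than they have. As the members spread more widely than all genes, the shares may be lower for them.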

Additional observations from a re-analysis of the deposited data

Results flagged for a closer look

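In 7 of 80 groups of 4 arrays examined, 1 array stood further from the other 3 than Dixon's limit for 4 values; chance alone flags about 5% of groups. In WT 2, Mcm4 (7.12, others 7.64 to 7.70) and Rpa2 (7.25, others 7.71 to 7.78) were low, and Mcm7 (8.20, others 7.50 to 7.61) and Ccnd3 (8.44, others 7.87 to 7.92) were high. In WT 4, Rrm2 was high at 6.43, with the others at 5.69 to 5.77. Among RaptorKO arrays, Mcm3 was low in RaptorKO 1 at 6.57 (others 7.20 to 7.24), and Lig1 was high in RaptorKO 2 at 7.03 (others 6.49 to 6.56). None of these genes was called.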

How the results depend on the processing

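The count of members that rose, 2, was 1 with a replicate block, 1 with probe sets averaged per gene, 0 within replicates 1 and 2, 0 within replicates 3 and 4, 1 with every probe set tested singly (chosen after seeing the data), and 3 with quantile normalization, which added Cdk4. It was 0 to 1 when single arrays were left out, and the count that fell was 0 in every fit run. The replicate block kept Ung (limma adjusted p = 0.0433) and ended the call of Chaf1b (limma adjusted p = 0.0896). Same-numbered arrays correlated at 0.16, -0.15, 0.11 and 0.026 in their deviations from the group means. With 4 arrays per group these values cannot settle whether the numbers pair the samples. Replicates 1 and 2 of both genotypes also shared their levels of sex-linked transcripts. The members' median change was 0.19 within replicates 1 and 2 and -0.016 to 0.095 in all other fits, and 21 of the 35 uncalled members changed sign in at least 1 fit. Over all genes, 224 were called (94 higher, 130 lower); with an intensity trend 370 (147, 223), within replicates 1 and 2 9 (7, 2) and within replicates 3 and 4 85 (35, 50). Genes lower numbered 85 with the replicate block and 205 with array weights. Leaving out single arrays gave 98 to 251 genes, 53 to 82 higher and 45 to 173 lower. The intervals allow undetected changes of up to 2-fold in single members.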

Other observations

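The 5 genes outside the set whose values most followed the members' mean over the 8 arrays were Mrpl11 (Pearson r = 0.963), Pigg (0.963), N4bp2 (0.959), Zfp783 (0.954) and Zfp35 (0.953). All were picked from 11413 genes over 8 arrays that share normalization and the high array RaptorKO 2, so the values are a description only. None of the 5 was called between genotypes (limma adjusted p = 0.316 to 0.692).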
